A study of Mus musculus with 16 samples.

Results

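Offspring of freeze-dried sperm were set against offspring of fresh sperm, using 8 of the 16 arrays of the series, 4 in each group. The labels placed every array in its group, and no measured value was used to choose them. The freeze-dried group came from sperm that had been dried and then neither irradiated nor heated, and the fresh group from sperm that had not been dried. All 8 animals were C57BL/6 mice at postnatal day 1, and total RNA of the brain of each was hybridised to its own one-colour Agilent array. The remaining 8 arrays, from offspring of dried sperm that had received 5 Gy of X-rays or been kept at 95 °C for 1 h, entered the fit only to estimate the spread among animals. The labels number the neonates without saying what the numbers mean, so littermates may be present and the p-values measure the spread between these animals. They do not say how eggs were fertilised with fresh sperm, so whether the groups also differed in the route of fertilisation is not known here.

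Freeze-dried sperm do not swim, and offspring from them are made by injecting the sperm head into an egg, while the paternal DNA stays packed around protamines through drying. After injection the paternal genome is unpacked, repaired with proteins of the egg and stripped of much of its DNA methylation, whereas imprinted genes keep the methylation that marks their parent of origin. Genes of the DNA damage response, imprinted genes, germline genes that methylation silences in the body, and the cell types of the newborn brain are therefore the groups described here. The labels state no purpose for the comparison beyond the series title, which concerns how well dried sperm nuclei tolerate extreme conditions.

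Of 26477 genes and features that passed the filter on dim probes, 15993 carried a gene symbol. All levels are the log2 of the processed signal relative to the 75th percentile of the array, and all differences are freeze-dried minus fresh on that scale, with standard errors of the fit after the sign ± (4 animals per group). The 75th percentile itself lay between 1304 and 1382 intensity units in the freeze-dried group and between 1043 and 1412 in the fresh group, and the share of spots well above background was 61.1% to 66.1% on these 8 arrays. The neuronal genes Tubb3, Dcx, Stmn2 and Snap25 were well above background on all 8 arrays. The 4 freeze-dried arrays shared a slide and its scan time with fresh animals 1 and 2, while fresh animals 3 and 4 lay on the other slide. Within the fresh group the slide changed together with the first part of the neonate number, so the effects of both cannot be told apart.

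No gene differed between freeze-dried and fresh offspring at an adjusted p under 0.05 in limma's moderated test (0 of 26477, 0%). The smallest adjusted p was 0.217, at Fut4. At an unadjusted p under 0.05 there were 2628 genes and features (9.93%), 1672 of them higher in the freeze-dried group (6.31%) and 956 lower (3.61%). The values of the 4 freeze-dried and 4 fresh animals did not overlap for 1101 genes and features (4.16%), 688 higher in the freeze-dried group (2.6%) and 413 lower (1.56%).

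The size of a difference that the data leave room for was small for most genes. The median difference over all genes and features was 0.02, the quartiles were -0.08 and 0.11, and the 95% interval of a gene reached a median of 0.22 to either side of its difference, which is a 1.16-fold change. Over all genes and features, 95.13% had an interval that lay wholly inside a 2-fold change either way, and 79.74% one wholly inside a 1.5-fold change. Among the genes with a symbol these shares were 97.33% and 90.29%. Measured means differed by more than 2-fold for 73 genes and features, 36 of them with a symbol. Of these 36, 29 were higher and 7 lower in the freeze-dried group, their smallest adjusted p was 0.435, and 4 had groups that did not overlap, beside 4.16% of all genes and features; they were picked by the size of the difference.

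**Figure D1:**
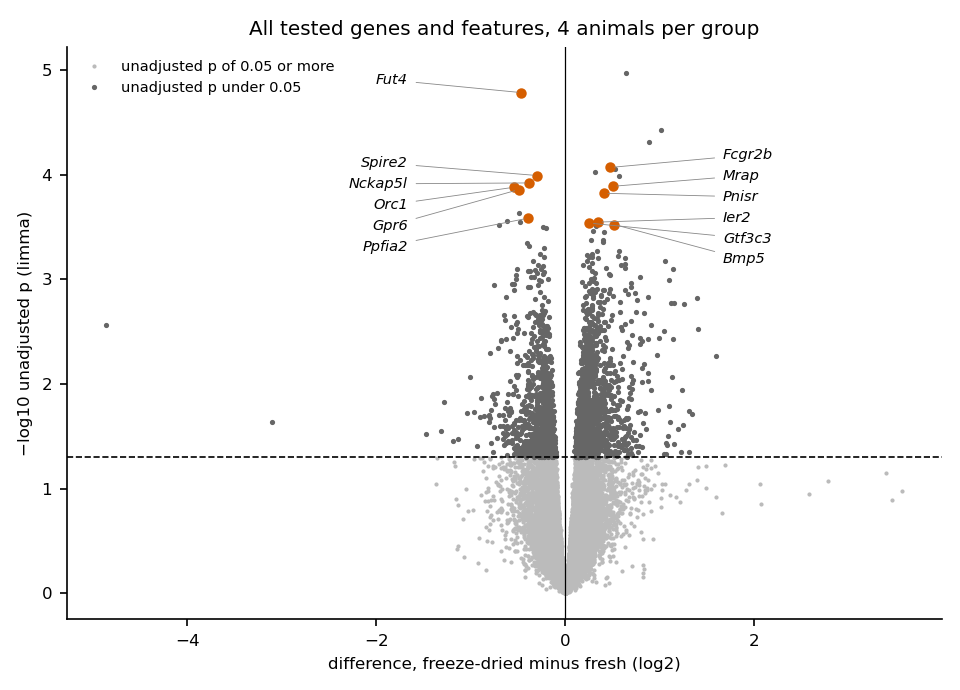
Difference between freeze-dried and fresh offspring (log2, x axis) against −log10 of the unadjusted limma p (y axis) for 26477 genes and features, 4 animals per group. Orange points are the 12 genes with a symbol and the smallest p, the dashed line is an unadjusted p of 0.05, and most points lie close to a difference of 0.

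The scatter among animals did not differ detectably between the groups. The median over genes of an animal's absolute deviation from its group mean averaged 0.0901 in the freeze-dried group and 0.113 in the fresh group, a difference of -0.0226 (two-sided permutation p = 0.143 over 70 assignments, where the smallest p possible is 0.0286). The group means were not recomputed for each assignment, so this p is approximate. The median SD of a gene was 0.131 in the freeze-dried group and 0.164 in the fresh group. The fresh animals spanned both slides and, by the Y-linked genes and Xist described below, both sexes. The freeze-dried animals shared a slide and were all high in Y-linked genes. A difference in scatter therefore cannot be told apart from a difference between slides or between sexes.

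Set against fresh animals 1 and 2 of the same slide, the freeze-dried group again held 0 called genes (0%), with 2795 at an unadjusted p under 0.05 (10.6%) and a smallest adjusted p of 0.0606. This 0 became 79 without fresh animal 1, 70 without fresh animal 2 and 42 without freeze-dried animal 1. Against fresh animals 3 and 4 of the other slide, 570 genes and features passed (2.15%), 321 higher and 249 lower in the freeze-dried group, and 5242 had an unadjusted p under 0.05 (19.8%). Fresh animals 3 and 4 themselves differed from fresh animals 1 and 2 at 555 genes and features (2.1%). Of the 20 genes with the smallest p in the comparison with all 4 fresh animals, described next, 7 were among the 570. The 570 calls became 0 when the spread was estimated from these 8 arrays alone, 15 with Y-linked signal as a term, 26 without freeze-dried animal 2 and 27 without fresh animal 3. Named genes among the 570 included Dcn (0.45, adjusted p = 0.0394 in limma), which makes the matrix proteoglycan decorin, and Pdia4 (-0.69, adjusted p = 0.0226), a disulphide isomerase of the endoplasmic reticulum. On the shared slide limma gave 0.19 for Dcn (adjusted p = 0.502) and -0.36 for Pdia4 (adjusted p = 0.255).

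The 20 genes with a symbol and the smallest p comprised 9 that were higher and 11 that were lower in the freeze-dried group, with differences of 0.20 to 0.70 in size and adjusted p between 0.217 and 0.333. These genes were picked by that p, so their values describe them and test nothing further. Fut4, whose enzyme builds the Lewis X carbohydrate found on neural stem cells, had levels of -3.02, -2.99, -3.13 and -3.18 in the freeze-dried group, against -2.58, -2.42, -2.73 and -2.73 in the fresh group. Its difference was -0.46 ± 0.07 (SE), and every freeze-dried animal lay below every fresh one. Fcgr2b, the inhibitory receptor for immunoglobulin G carried by microglia and other immune cells, had -3.21, -3.28, -3.33 and -3.48 in the freeze-dried group, against -3.71, -3.75, -3.79 and -3.95 in the fresh group (0.47 ± 0.09). All 4 freeze-dried animals were the higher ones here. Spire2, an actin nucleator, had -1.36, -1.23, -1.20 and -1.23 in the freeze-dried group, against -0.85, -0.91, -1.08 and -0.98 in the fresh group (-0.30 ± 0.06), again with no overlap.

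Among the lower ones, Ppfia2, the presynaptic scaffold liprin-alpha-2, had 0.48, 0.56, 0.85 and 0.92 in the freeze-dried group, against 1.11, 1.09, 1.09 and 1.09 in the fresh group (-0.39 ± 0.08). The fresh animals lay close to each other, and the freeze-dried animals 1 and 2, in slide row 1, lay below animals 3 and 4, in slide row 2. Gpr6, a receptor of striatal neurons, had -3.17, -3.14, -3.04 and -2.87 in the freeze-dried group, against -2.55, -2.44, -2.50 and -2.75 in the fresh group (-0.49 ± 0.10). Orc1, a subunit of the origin recognition complex that licenses DNA replication, had -3.97, -3.96, -4.13 and -4.20 in the freeze-dried group, against -3.19, -3.66, -3.59 and -3.65 in the fresh group (-0.54 ± 0.10). Fresh animal 1 stood highest for Orc1, and the other fresh animals also lay above all freeze-dried ones. Trpc7, a cation channel, ranged from -3.52 to -3.13 in the freeze-dried group, against -2.90 to -2.54 in the fresh group (-0.70), and Mpp2, a membrane-associated guanylate kinase of synapses, from -2.37 to -1.97 in the freeze-dried group, against -1.90 to -1.69 in the fresh group (-0.38). The other lower genes were Nckap5l (-0.38), the deubiquitinase Usp31 (-0.24), Vat1 (-0.20) and Ppif (-0.22), which encodes the cyclophilin D of mitochondria.

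Among the higher ones, Pnisr, a serine- and arginine-rich protein tied to RNA splicing, had 3.26, 3.64, 3.36 and 3.51 in the freeze-dried group, against 3.17, 2.94, 2.97 and 3.07 in the fresh group (0.41 ± 0.08). Mrap, the accessory protein of the melanocortin receptor for corticotropin, had -3.57, -3.72, -3.54 and -3.79 in the freeze-dried group, against -4.15, -4.08, -3.98 and -4.43 in the fresh group (0.50 ± 0.10). Gtf3c3, a subunit of the factor TFIIIC that starts transcription of tRNA genes, had 0.72, 0.85, 0.77 and 0.71 in the freeze-dried group, against 0.46, 0.59, 0.46 and 0.52 in the fresh group (0.25 ± 0.05). None of the 3 overlapped between the groups. Enpep, an aminopeptidase of pericytes that cleaves angiotensin II, ranged from -2.99 to -2.68 in the freeze-dried group, against -3.21 to -3.15 in the fresh group (0.41). Bmp5, a secreted ligand of the BMP family, was 0.52 higher but well above background in only 2 of the 4 fresh animals. Echdc3 was higher by 0.40, and Ier2 and Btg2, both immediate early genes, are described below with their list.

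**Figure D2:**
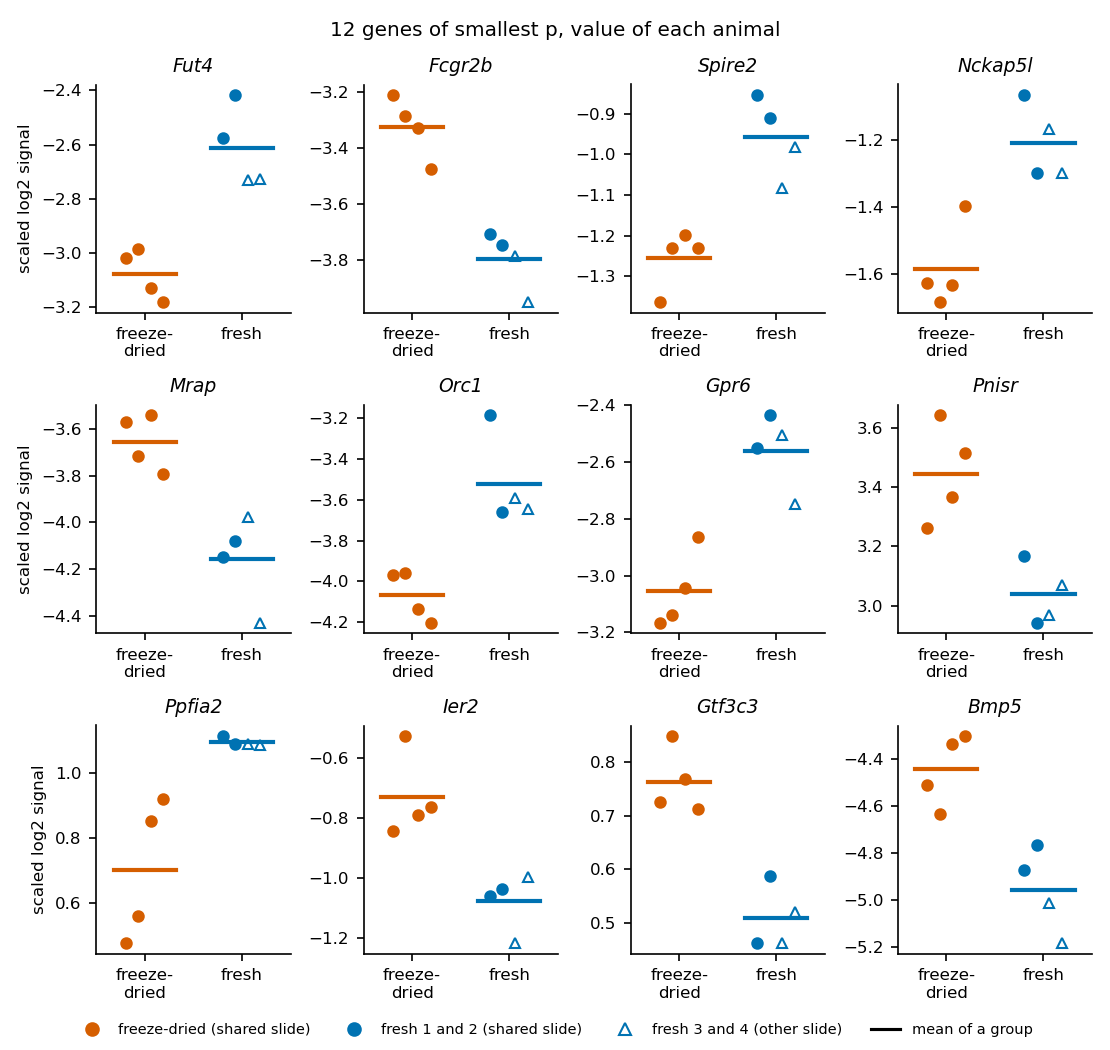
Scaled log2 signal (y axis) of each animal for the 12 genes with the smallest p, freeze-dried left and fresh right in each panel, with a line at the mean of each group. Filled symbols are arrays of the shared slide and open triangles fresh animals 3 and 4 of the other slide. No panel has overlapping groups, and the genes were chosen by their p.

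Ranking by size instead of p brought forward genes of single animals. Among genes well above background on all 8 arrays and without overlap, the largest higher values were those of Anxa8 (1.11), Dsp (0.93), Krt17 (0.87), 2610528A11Rik (0.73), Tctex1d4 (0.65), Cers3 (0.64), Apold1 (0.64) and Pigt (0.63). Dsp, which encodes the desmosome protein desmoplakin, had -2.97, 0.12, -3.02 and -3.05 in the freeze-dried group, against -3.08, -3.22, -3.20 and -3.16 in the fresh group. Krt17, a keratin, had -2.24, 0.60, -2.24 and -2.17 in the freeze-dried group, against -2.54, -2.30, -2.25 and -2.45 in the fresh group. In both genes freeze-dried animal 2 alone carried the difference, and the same animal was highest for Anxa8 and for Cers3, a ceramide synthase of skin. Tctex1d4 was highest in freeze-dried animal 3, at -3.35, -3.56, -2.52 and -3.65, against -3.84, -3.98, -3.97 and -3.89 in the fresh group.

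Apold1 and Pigt did not rest on 1 animal. Apold1, a gene of endothelial cells that responds quickly to stimuli, had -0.08, 0.34, -0.31 and -0.29 in the freeze-dried group, against -0.74, -0.78, -0.95 and -0.41 in the fresh group (0.64, 95% interval 0.32 to 0.95). Pigt, a subunit of the transamidase that attaches GPI anchors to proteins, had 2.31, 2.91, 2.41 and 2.53 in the freeze-dried group, against 2.02, 1.92, 1.76 and 1.92 in the fresh group (0.63, 95% interval 0.31 to 0.95). For both, freeze-dried animal 2 was the highest of the group while the other 3 also lay above all fresh animals.

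The largest lower values were those of E2f4 (-0.77), Hbs1l (-0.76), Trpc7 (-0.70), Secisbp2l (-0.64), Aim2 (-0.64), Hspbap1 (-0.56), Orc1 (-0.54) and Virma (-0.54). Hbs1l, which rescues stalled ribosomes, had 1.94, -0.42, 1.75 and 1.78 in the freeze-dried group, against 1.95, 1.98, 2.13 and 2.03 in the fresh group, so that freeze-dried animal 2 alone stood low. E2f4, a repressor of cell cycle genes, had -2.85, -4.02, -3.18 and -3.24 in the freeze-dried group, against -2.55, -2.81, -2.35 and -2.52 in the fresh group, with freeze-dried animal 2 the lowest. Secisbp2l had -3.01, -2.79, -3.04 and -2.96 in the freeze-dried group, against -2.64, -2.54, -2.01 and -2.04 in the fresh group, and fresh animals 3 and 4 of the other slide were the highest. Virma, part of the enzyme complex that methylates adenosine in mRNA, had -0.57, -1.19, -0.93 and -1.03 in the freeze-dried group, against -0.45, -0.42, -0.26 and -0.43 in the fresh group, with freeze-dried animal 1 nearest to the fresh group. Aim2, a sensor of DNA in the cytosol, had -4.80, -4.35, -4.28 and -4.60 in the freeze-dried group, against -4.27, -4.24, -3.00 and -3.97 in the fresh group, and fresh animal 3 was the highest.

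Immediate early genes are switched on within minutes by nerve activity, growth factors or stress, through factors already present in the cell, chiefly serum response factor at CArG boxes and CREB at the cyclic AMP response element (CRE). Of the 32 members tested, 0 passed the test, 24 were higher and 8 lower in the freeze-dried group, and their median difference was 0.18, beside 0.02 over all genes and features. At an unadjusted p under 0.05, 13 were higher and 1 was lower, where all genes gave 6.31% and 3.61%. The groups did not overlap for 9 higher and 0 lower members, where all genes gave 2.6% and 1.56%.

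Nr4a1, an orphan nuclear receptor of this class, had levels of 1.98, 2.01, 1.89 and 2.08 in the freeze-dried group, against 1.47, 1.18, 1.71 and 1.76 in the fresh group (0.46 ± 0.11, adjusted p = 0.333 in limma). Klf4, a zinc finger factor, had 1.63, 2.14, 1.71 and 1.79 in the freeze-dried group, against 1.16, 1.15, 1.52 and 1.54 in the fresh group (0.47 ± 0.11, adjusted p = 0.333). In both, fresh animals 1 and 2 were the lowest of all 8 and fresh animals 3 and 4 lay just under the freeze-dried range. Btg2, which restrains the division of neural progenitors and is also a target of p53, had -0.28, -0.02, 0.09 and -0.09 in the freeze-dried group, against -0.47, -0.39, -0.65 and -0.39 in the fresh group (0.40 ± 0.09). Ier2 had -0.84, -0.53, -0.79 and -0.76 in the freeze-dried group, against -1.06, -1.04, -1.22 and -1.0 in the fresh group (0.35 ± 0.07). In these 2 genes fresh animals of both slides lay below every freeze-dried animal.

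The classical members of the class spread widely within the fresh group. Fos, a subunit of the AP-1 factor, had -0.38, 0.06, -0.25 and 0.16 in the freeze-dried group, against -1.40, -2.13, -0.84 and 0.04 in the fresh group (0.98, 95% interval 0.20 to 1.76). Egr1, a zinc finger factor, had 0.42, 0.93, 1.20 and 1.15 in the freeze-dried group, against -0.17, -0.55, 0.29 and 0.89 in the fresh group (0.81, 95% interval 0.31 to 1.32). The groups overlapped in both, as fresh animal 4 lay among the freeze-dried animals while fresh animal 2 was far below them. Arc, which neurons transcribe after synaptic activity, had -0.91, -1.01, -0.98 and -1.06 in the freeze-dried group, against -1.10, -1.06, -1.18 and -1.27 in the fresh group (0.16, 95% interval -0.02 to 0.34). Npas4, a factor induced by calcium entry into neurons, had -0.01, 0.23, 0.53 and 0.47 in the freeze-dried group, against 0.50, -0.74, 0.06 and 0.09 in the fresh group (0.33, 95% interval -0.09 to 0.75), and fresh animals 1, 3 and 4 lay inside the freeze-dried range.

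Taken by slide, the median of the list was 0.29 against fresh animals 1 and 2 and 0.11 against fresh animals 3 and 4, and medians over all genes were 0.03 and 0.00. Fos differed by 1.66 on the shared slide and by 0.30 across slides, and Egr1 by 1.29 and 0.34. Nr4a1 differed by 0.66 and 0.25, and Btg2 by 0.36 and 0.45, of which the last passed the test (adjusted p = 0.049 in limma). Per animal, the mean deviation of the list from the mean of the 8 arrays was 0.03, 0.16, 0.11 and 0.12 in the freeze-dried group, against -0.19, -0.27, 0.00 and 0.05 in the fresh group. Fresh animals 1 and 2 were the lowest of the 8, and fresh animal 4 lay above freeze-dried animal 1. The erythroid gene Alas2, the first enzyme of haem synthesis in red cells, was low in the same animals, with 2.58, 2.23, 1.63 and 2.35 in the freeze-dried group, against 0.63, 0.63, 2.50 and 1.40 in the fresh group. The erythroid list had another order. Its mean deviation was lowest in fresh animals 2 (-0.43) and 4 (-0.33). Freeze-dried animal 3 (-0.25) also lay below fresh animal 1 (-0.20). The part of Alas2 in the result was not tested.

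**Figure D3:**
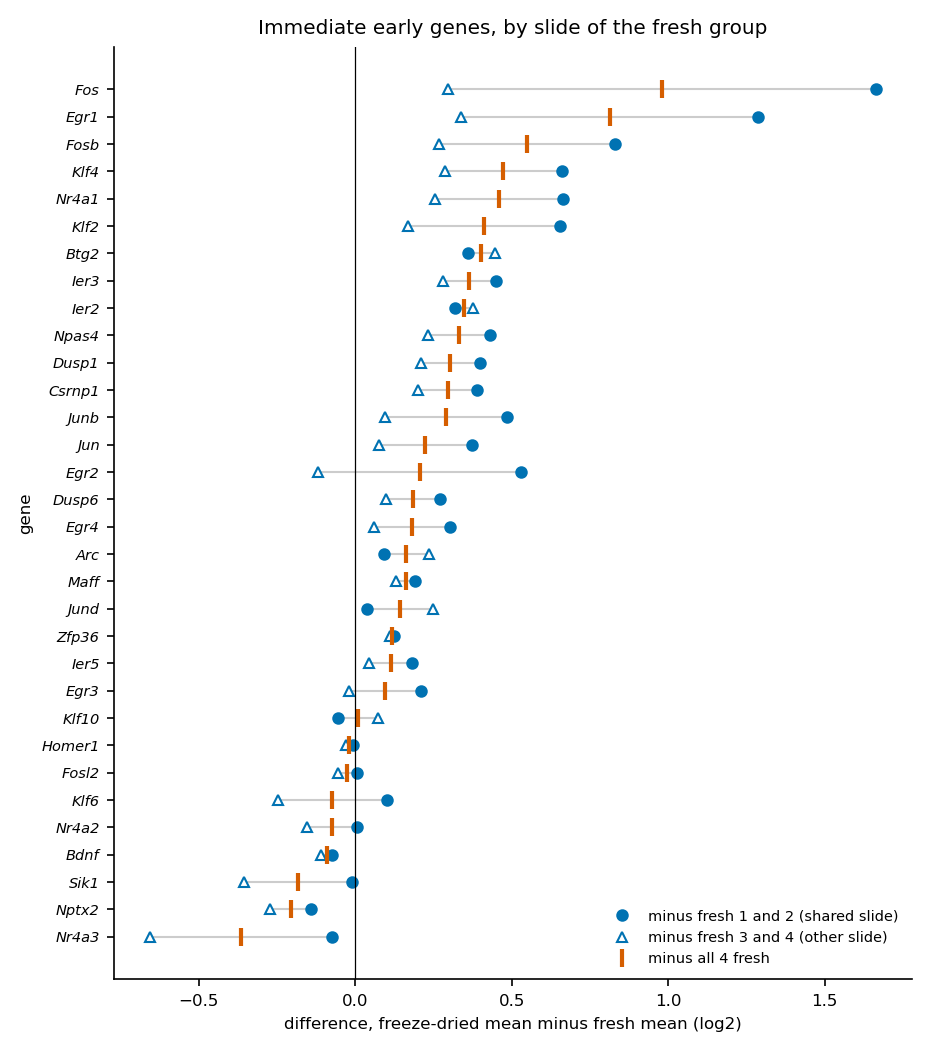
Difference of the freeze-dried mean (log2, x axis) for each of the 32 immediate early genes (y axis) from fresh animals 1 and 2 of the shared slide (filled circles), from fresh animals 3 and 4 of the other slide (open triangles) and from all 4 fresh animals (bars). Fos, at 1.66 and 0.30, and Egr1, at 1.29 and 0.34, have the widest spans, and circles lie right of triangles for most genes on the positive side.

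Promoters of 2 members are shown because Btg2 was higher against fresh animals of both slides and Nr4a1 mainly against one. Each is the 250 bases before an annotated start in RefSeq (build GRCm38.p6), written 5′ to 3′ on the gene's strand, with CRE and its half-site in capitals. For Nr4a1 the window lies inside the span of the gene (chr15:101253902-101274795), so it does not precede the outermost start. Btg2 lies on the minus strand at chr1:134079156-134079405 and Nr4a1 on the plus strand at chr15:101266596-101266845.
Btg2: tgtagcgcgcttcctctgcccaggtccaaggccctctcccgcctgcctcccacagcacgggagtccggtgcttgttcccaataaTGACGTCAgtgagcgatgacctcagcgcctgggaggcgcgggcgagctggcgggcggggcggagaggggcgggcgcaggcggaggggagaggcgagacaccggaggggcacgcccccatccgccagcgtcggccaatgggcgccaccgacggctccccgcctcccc
Nr4a1: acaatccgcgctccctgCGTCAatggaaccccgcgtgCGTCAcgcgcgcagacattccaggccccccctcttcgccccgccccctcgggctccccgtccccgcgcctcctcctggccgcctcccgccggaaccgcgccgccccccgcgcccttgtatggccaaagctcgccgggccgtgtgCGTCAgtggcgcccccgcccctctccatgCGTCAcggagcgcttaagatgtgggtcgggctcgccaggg
The full CRE, TGACGTCA, occurred 1 time in the Btg2 window and 0 times in that of Nr4a1, which held 4 copies of the half-site TGACG read on the minus strand. The full element contains the half-site on both strands. Of 25 list members with a promoter in the table, 3 held the full element (12%), 17 the half-site on either strand (68%) and 2 a CArG box (8%). Over all 27025 genes of the table the shares were 1.77%, 19.8% and 1.62%. These matches describe the letters of the window and not binding.

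Most genes of the DNA damage response lay close together in the 2 groups. Cdkn1a, the cell cycle inhibitor that p53 switches on, had 1.21, 1.47, 1.44 and 1.24 in the freeze-dried group, against 1.37, 1.35, 1.14 and 1.24 in the fresh group (0.06, 95% interval -0.10 to 0.23). Mdm2, which degrades p53 and is its target, had 3.41, 3.61, 3.36 and 3.27 in the freeze-dried group, against 3.40, 3.49, 3.50 and 3.39 in the fresh group (-0.03, 95% interval -0.20 to 0.13). The groups overlapped fully for both, and neither interval reached a change of 1.5-fold. Among the 26 p53 targets tested, 15 were higher and 11 lower (median 0.04), and 0 passed against all 4 fresh animals. Against fresh animals 3 and 4 of the other slide 1 of the 26 passed, beside 2.15% of all genes and features. Perp, 0.55 higher, was high in freeze-dried animal 2 alone (1.51, 2.72, 1.56 and 1.36, against 1.13, 1.09, 1.42 and 1.29 in the fresh group), the animal that also carried the keratins; Perp is a desmosome gene of epithelia as well as a p53 target. Trp53inp1, another target, was 0.22 lower, with overlap.

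The 43 genes of damage sensing and repair had a median difference of -0.01 and spanned -0.45 to 0.18, with 42 of their intervals inside a 1.5-fold change. Of the 43, 0 passed the test against all fresh animals or against those of the shared slide. The comparison with the fresh animals of the other slide had 3 of the 43 passing, beside 2.15% of all genes and features. Lig1, the ligase that seals nicks in replication and repair, had 2.56, 2.61, 2.48 and 2.49 in the freeze-dried group, against 2.28, 2.40, 2.45 and 2.45 in the fresh group (0.14), without overlap. Xrcc1, the scaffold of single-strand break repair, ranged from 3.03 to 3.14 in the freeze-dried group, against 2.63 to 3.07 in the fresh group (0.18).

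Lists of protein folding stress had medians near that of all genes. The 26 heat shock proteins and chaperones had a median of -0.01, whose sign turned when arrays were scaled by their medians, with 10 higher and 16 lower. Hspa1a and Hspa1b, the inducible Hsp70 genes, were 0.20 and 0.20 lower, with overlapping groups; their sequences are nearly the same, so their probes may share signal. Of 23 genes of the unfolded protein and integrated stress responses, 7 were higher and 16 lower (median -0.04). Pdia4 had -0.24, -0.32, -0.36 and -0.18 in the freeze-dried group, against 0.01, 0.16, 0.42 and 0.41 in the fresh group (-0.52 ± 0.13), with no overlap and the highest values in fresh animals 3 and 4. Hyou1, a chaperone of the same compartment, had -2.96, -3.18, -2.89 and -2.61 in the freeze-dried group, against -2.69, -2.46, -2.55 and -2.40 in the fresh group (-0.38). Atf3, a stress factor that is also quickly induced, had -3.00, -2.60, -2.83 and -2.71 in the freeze-dried group, against -3.37, -3.59, -3.29 and -2.87 in the fresh group (0.49), with fresh animal 4 inside the freeze-dried range. Among 24 antioxidant genes 17 were higher (median 0.07), led by p by Txn1 (-0.24) and Nqo1 (0.20). The antioxidant median was 0.07 against fresh animals 1 and 2 (19 higher) and -0.01 against fresh animals 3 and 4 (12 higher). Against fresh animals 3 and 4, 4 of these genes passed the test, beside 2.15% of all genes and features. Among 18 hypoxia genes 14 were higher (median 0.03), all 18 with intervals inside a 1.5-fold change.

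Imprinted genes are read mainly from 1 parental copy, under control of methylation set in sperm or egg. Of 52 tested, 0 passed, 30 were higher and 22 lower, and the median was 0.02. Differences ran from -0.39 to 0.32, and 49 of the intervals lay inside a 1.5-fold change. At an unadjusted p under 0.05, 5 were higher and 2 lower, beside 6.31% and 3.61% of all genes and features.

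The H19 and Igf2 pair, controlled by a region that is methylated in sperm, had values that overlapped. H19, the maternally read RNA, had 4.97, 4.85, 4.68 and 4.74 in the freeze-dried group, against 4.84, 4.62, 4.74 and 4.50 in the fresh group (0.14, 95% interval -0.04 to 0.31). Igf2, the paternally read growth factor, had 2.82, 2.65, 2.56 and 2.67 in the freeze-dried group, against 2.74, 2.66, 2.84 and 2.62 in the fresh group (-0.04, 95% interval -0.18 to 0.10). The Dlk1, Meg3 and Dio3 cluster is also controlled by methylation set in sperm. Dlk1, a paternally read membrane protein, ranged from 3.17 to 3.61 in the freeze-dried group, against 3.08 to 3.47 in the fresh group (0.11). Meg3, a maternally read RNA, ranged from 5.74 to 6.08 in the freeze-dried group, against 5.45 to 6.25 in the fresh group (0.10). Dio3, which inactivates thyroid hormone, had -2.76, -2.78, -2.90 and -2.98 in the freeze-dried group, against -2.73, -2.57, -2.53 and -2.40 in the fresh group (-0.30 ± 0.09, adjusted p = 0.358 in limma), and all freeze-dried animals were lower than all fresh ones, with fresh animal 1 nearest to them.

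In the remaining genes named here the imprint is set in the egg. Cdkn1c, a growth inhibitor read from the maternal copy, had 5.48, 5.44, 5.31 and 5.24 in the freeze-dried group, against 5.06, 5.28, 5.10 and 5.18 in the fresh group (0.21 ± 0.06), and fresh animal 2 overlapped the freeze-dried range. Slc22a18, in the same cluster, had -2.06, -2.29, -2.23 and -2.31 in the freeze-dried group, against -2.51, -2.33, -2.38 and -2.78 in the fresh group (0.28), with no overlap by a narrow margin. Kcnq1ot1, the paternally read RNA of that cluster, had 1.05, 1.1, 3.03 and 3.37 in the freeze-dried group, against 2.32, 1.57, 3.03 and 2.74 in the fresh group (-0.27, 95% interval -1.35 to 0.80). The freeze-dried animals 1 and 2 of slide row 1 were low and animals 3 and 4 of slide row 2 high, so this gene's interval was wide and slide row and animal cannot be told apart. Peg3, a paternally read zinc finger gene, had 0.88, 0.66, 0.89 and 1.1 in the freeze-dried group, against 0.93, 0.69, 0.50 and 0.32 in the fresh group (0.27), and the 2 fresh animals of the other slide were the lowest. Mest (0.00, 95% interval -0.17 to 0.16), Snrpn (0.06, -0.09 to 0.22), Ndn (-0.08, -0.27 to 0.10), Plagl1 (0.09, -0.11 to 0.28) and Grb10 (-0.09, -0.52 to 0.33) all overlapped between groups. Dcn, which the list holds because it is imprinted in placenta, had 3.52, 3.69, 3.54 and 3.40 in the freeze-dried group, against 3.35, 3.34, 3.08 and 3.10 in the fresh group (0.32), without overlap, and is also a gene of meningeal fibroblasts.

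The enzymes that write, keep and remove DNA methylation also had overlapping levels. Dnmt1, which copies methylation at replication, had 0.49, 0.57, 0.46 and 0.53 in the freeze-dried group, against 0.54, 0.70, 0.62 and 0.69 in the fresh group (-0.13, 95% interval -0.24 to -0.01). Its partner Uhrf1 ranged from 0.96 to 1.34 in the freeze-dried group, against 0.95 to 1.47 in the fresh group (-0.15). The writers Dnmt3a (-0.11) and Dnmt3b (-0.04) and the removing enzymes Tet1 (-0.06) and Tet3 (-0.10) differed by less. Tet2 had 1.40, 1.27, 1.06 and 1.22 in the freeze-dried group, against 1.42, 1.54, 1.84 and 1.36 in the fresh group (-0.30), with fresh animal 3 the highest. Hdac2, a histone deacetylase, had -1.34, -1.38, -1.47 and -1.51 in the freeze-dried group, against -1.23, -1.12, -1.22 and -0.99 in the fresh group (-0.29 ± 0.09), with all freeze-dried animals lower, and Ezh1, a histone H3 methyltransferase, was 0.13 higher without overlap. Over the whole list of 34 regulators 16 were higher and 18 lower (median -0.01, with the sign turned under median scaling), and all 34 intervals lay inside a 1.5-fold change.

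Germline genes that promoter methylation silences in the body mostly did not pass the filter on dim probes. Of 34 listed, 13 passed it, 5 of these were higher in the freeze-dried group, the median was -0.07 and the mean 0.05, so the 2 summaries differ in sign, and the median was 0.04 without fresh animal 1. Tdrd1, a Tudor protein of the piRNA pathway, had -1.56, -1.36, -1.03 and -1.40 in the freeze-dried group, against -1.85, -1.97, -2.25 and -1.42 in the fresh group (0.54, 95% interval 0.06 to 1.01). Ddx4, the germ cell helicase also called Vasa, had -2.77, -2.65, -2.40 and -2.30 in the freeze-dried group, against -3.05, -2.92, -2.92 and -2.57 in the fresh group (0.34, 95% interval 0.00 to 0.68). Fresh animal 4 lay inside the freeze-dried range for both. Dazl did not pass the filter and was not tested, with -5.38, -5.27, -5.08 and -4.95 in the freeze-dried group, against -5.49, -5.78, -5.75 and -6.10 in the fresh group.

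Lists of neurons and their precursors had medians slightly under that of all genes. The 37 synapse genes had 11 higher and 26 lower members (median -0.04) and all 37 intervals inside a 1.5-fold change. Beside Ppfia2, the AMPA receptor subunit Gria2 was 0.22 higher and the adhesion protein Nlgn1 0.21 lower, both with overlap. Gad1, which makes the transmitter GABA, had 3.40, 3.35, 3.49 and 3.45 in the freeze-dried group, against 3.32, 3.33, 3.14 and 3.31 in the fresh group (0.15), and all freeze-dried animals lay above all fresh ones. New and migrating neurons (24 genes, 7 higher, median -0.02), neural progenitors (21, 6 higher, median -0.04) and forebrain genes (26, 11 higher, median -0.06) were alike in this, and the forebrain median was 0.00 without fresh animal 2. Against fresh animals 1 and 2, then 3 and 4, the medians were 0.008 and 0.015 for progenitors and 0.007 and -0.039 for new neurons. They were -0.032 and -0.076 for synapse genes and -0.046 and -0.035 for forebrain genes, beside 0.034 and 0.003 over all genes and features. Sox11, a factor of young neurons, was 0.26 lower, with freeze-dried animal 2 the lowest (4.46, 3.89, 4.25 and 4.30, against 4.39, 4.62, 4.51 and 4.44 in the fresh group). Dll1, the Notch ligand of differentiating precursors, ranged from -0.49 to -0.25 in the freeze-dried group, against -0.32 to -0.14 in the fresh group (-0.21), and Prom1, a membrane protein of progenitors, from -2.96 to -2.75 in the freeze-dried group, against -2.75 to -2.52 in the fresh group (-0.27).

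In the forebrain list, Dlx5, a homeobox gene of inhibitory neurons, had -1.08, -1.68, -0.49 and -0.30 in the freeze-dried group, against -0.26, -0.18, -0.30 and -0.39 in the fresh group (-0.61, 95% interval -1.09 to -0.12). The fresh animals were close to each other, and among the freeze-dried animals 1 and 2, in slide row 1, lay below animals 3 and 4, in slide row 2. Foxp1, a factor of striatal and cortical neurons, had 2.33, 2.39, 2.49 and 2.46 in the freeze-dried group, against 2.08, 2.25, 2.26 and 2.32 in the fresh group (0.19), without overlap. All 4 fresh animals lay in slide row 1, so row was unequal between the groups. For Ppfia2 and Dlx5 alike, the freeze-dried animals of row 1 had the low values while the fresh animals of row 1 had high ones. No fit held a term for slide row, so its part was not tested.

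Lists of choroid plexus, meninges, vessels, microglia and ependyma had medians above that of all genes. Choroid plexus, the epithelium that secretes cerebrospinal fluid, had 19 of 20 members higher (median 0.22), 3 without overlap beside 2.6% of all genes. Meninges and fibroblasts had 18 of 22 (median 0.13), brain endothelium and pericytes 19 of 24 (median 0.09), microglia 14 of 20 (median 0.11) and ependyma 18 of 24 (median 0.08). The ependymal median was 0.02 without freeze-dried animal 3. In whole brain RNA, more cells of a type and more RNA per cell cannot be told apart. No member of these 5 lists passed the test against all 4 fresh animals.

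Kcnj13, a potassium channel of choroid plexus, had 0.11, -0.25, -0.05 and -0.17 in the freeze-dried group, against -0.62, -0.54, -0.32 and -0.69 in the fresh group (0.45 ± 0.14). Otx2, a homeobox gene needed by this epithelium, had 2.46, 2.57, 2.36 and 2.34 in the freeze-dried group, against 2.34, 2.25, 2.06 and 2.10 in the fresh group (0.25 ± 0.07). All freeze-dried animals were higher in both, fresh animal 1 being nearest for Otx2 and fresh animal 3 for Kcnj13. Trpv4, a cation channel, and Folr1, a folate receptor, were 0.33 and 0.44 higher with overlap. Per animal, the mean deviation of the choroid plexus list was 0.31, 0.06, 0.15 and -0.09 in the freeze-dried group, against -0.18, -0.15, 0.10 and -0.20 in the fresh group. Freeze-dried animals 2 and 4 lay below fresh animal 3 in it, so the groups overlapped at the level of the list. The median of the list was 0.14 without freeze-dried animal 1.

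Tyrobp, the signalling adaptor of microglia, had 1.09, 1.13, 1.00 and 0.99 in the freeze-dried group, against 0.84, 0.83, 0.62 and 0.78 in the fresh group (0.28 ± 0.09). Fcgr3, an activating receptor for immunoglobulin G, had -1.79, -1.91, -1.82 and -1.91 in the freeze-dried group, against -2.11, -2.05, -2.08 and -2.02 in the fresh group (0.21 ± 0.06). With Fcgr2b these made 3 of 20 microglial genes higher without overlap, beside 2.6% of all genes and features, while Laptm5 (0.32) overlapped. The 6 lower members, among them the microglial receptors Cx3cr1 (-0.02) and Siglech (-0.15), named after their values were seen, all overlapped. The mean deviation of the microglial list was 0.10, 0.03, 0.06 and 0.04 in the freeze-dried group, against -0.03, -0.13, -0.05 and -0.02 in the fresh group, and here the groups were apart, freeze-dried animal 2 lying nearest to fresh animal 4. The median of the list was 0.06 without fresh animal 2 and 0.07 without freeze-dried animal 1. Postn, a matrix protein of fibroblasts, had 0.61, 0.52, 0.73 and 0.32 in the freeze-dried group, against 0.38, 0.21, -0.10 and -0.08 in the fresh group (0.45), and Mgp (0.32) and Slc6a13 (0.23), a GABA transporter of the meninges, were also on the higher side. In vessels, Ocln (0.32), of tight junctions, Vtn (0.20), of pericytes, and Abcb1a (0.15), an efflux pump of the barrier, were so too.

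Interferon response genes were higher for 20 of 25 (median 0.15), none without overlap. The median was 0.06 without fresh animal 2, 0.06 without freeze-dried animal 3 and 0.03 without animal 2 of both groups. Rsad2, an antiviral enzyme, had -2.07, -2.44, -1.72 and -1.62 in the freeze-dried group, against -3.06, -3.39, -2.32 and -2.31 in the fresh group (0.81, 95% interval -0.08 to 1.70), with fresh animals 1 and 2 the lowest, and Ifi27 had 2.04, 1.76, 1.97 and 1.95 in the freeze-dried group, against 1.55, 1.45, 1.65 and 1.94 in the fresh group (0.28). The mean deviation of the list per animal was -0.12, 0.18, 0.30 and -0.05 in the freeze-dried group, against 0.05, -0.28, -0.20 and 0.10 in the fresh group. Freeze-dried animals 1 and 4 lay below fresh animal 4 in it, so the list did not separate the groups animal by animal. Glucocorticoid response genes were higher for 13 of 19 (median 0.11), among them Sult1a1 (0.32) and Nfkbia (0.17), the inhibitor of NF-kappaB, both without overlap. Their median was 0.06 without animal 2 of both groups.

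Glial lists were nearer to all genes. Astrocytes had a median of -0.03 and a mean of 0.002, with 0.16 against fresh animals 1 and 2 and -0.24 against fresh animals 3 and 4, so that the sign depended on the slide. Slc1a3, the glutamate transporter of astrocytes and radial glia, had 3.14, 3.11, 3.30 and 3.13 in the freeze-dried group, against 3.07, 2.96, 2.97 and 2.92 in the fresh group (0.19), higher in every freeze-dried animal than in every fresh one. Oligodendrocyte genes had a median of 0.02, whose sign turned under normexp background correction.

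Lists of general cell function stayed near the median of all genes. Cytosolic ribosomal proteins had a median of 0.02 over 51 genes, the nuclear genes of the respiratory chain 0.01 over 39, cell cycle genes 0.04 over 37, RNA splicing regulators 0.02 over 21 and the growth hormone and IGF axis 0.04 over 17. The medians of the respiratory and splicing lists turned sign under quantile normalization. Igf1, the growth factor, had -0.69, -0.86, -0.87 and -0.80 in the freeze-dried group, against -1.08, -0.93, -1.21 and -0.98 in the fresh group (0.25), without overlap. Igfbp6, which binds IGF2, was 0.36 higher without overlap, and Socs2, a brake on growth hormone signalling, 0.19 higher with overlap. In the splicing list, Clk2, a kinase of splicing factors, was 0.22 higher and Hnrnph1, an RNA-binding protein, 0.18 lower, both without overlap. Cholesterol synthesis had 18 of 24 members lower (median -0.06), but without fresh animal 2 its median was -0.02 and without animal 2 of both groups -0.0015. Dhcr7, its last enzyme, had 0.63, 0.69, 0.79 and 0.80 in the freeze-dried group, against 0.92, 0.93, 0.88 and 1.01 in the fresh group (-0.21 ± 0.06), with every freeze-dried animal lower. The reference genes Actb (-0.09, 95% interval -0.22 to 0.03) and Gapdh (0.06, 95% interval -0.09 to 0.22) overlapped.

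**Figure D4:**
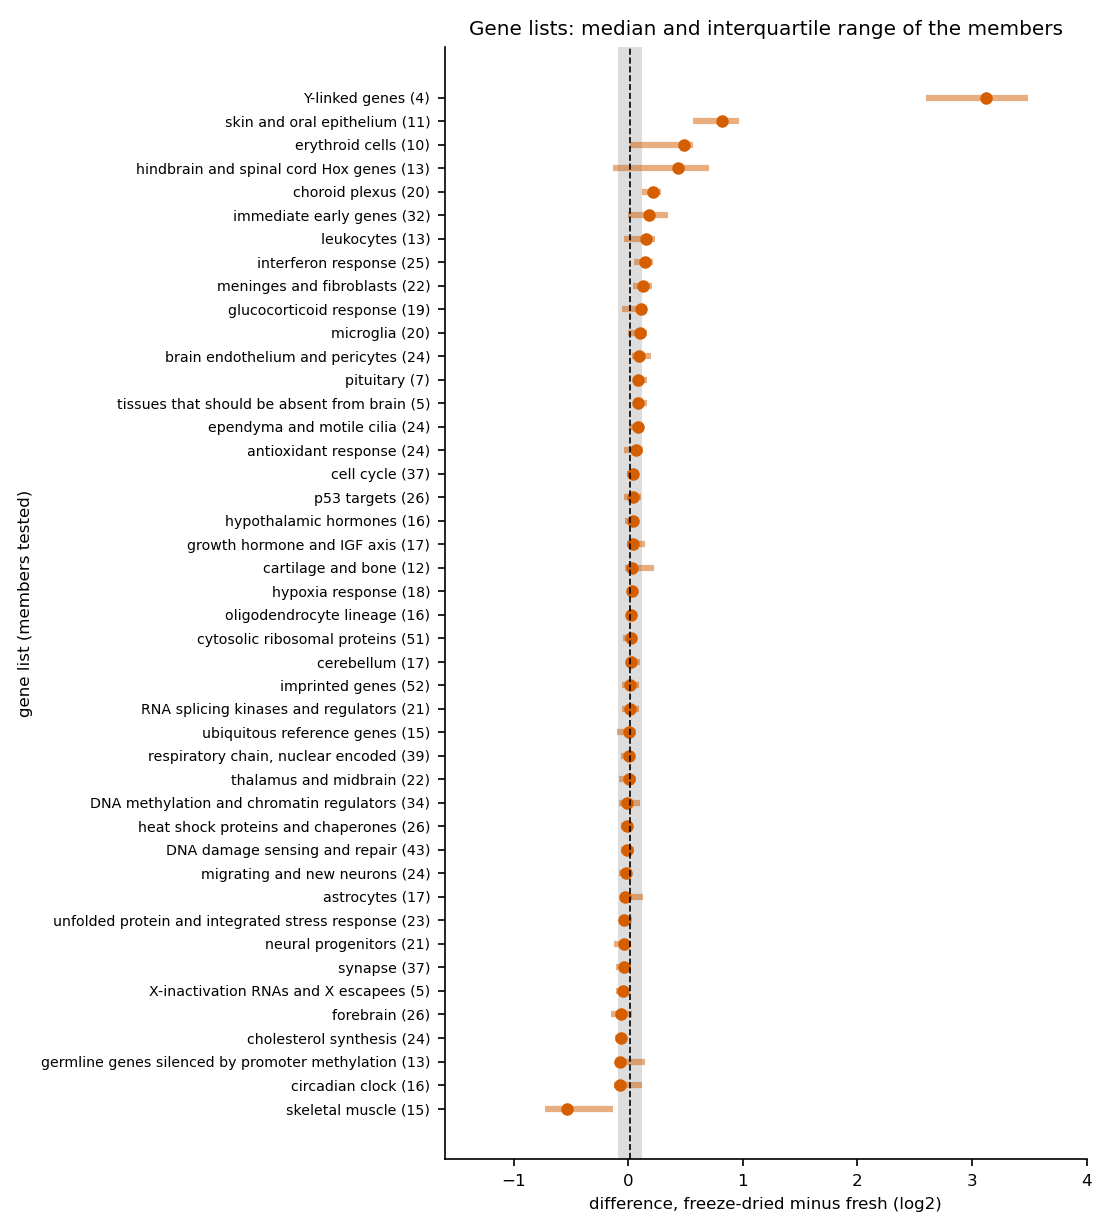
Median difference between freeze-dried and fresh offspring (points, log2, x axis) and interquartile range of the members (bars) for each gene list (y axis, members tested in brackets). The dashed line is the median of all genes and features, 0.02, and the grey band their interquartile range, -0.08 to 0.11. Y-linked genes, skin, erythroid, Hox and skeletal muscle lists lie farthest out.

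The lists farthest from 0 marked sex, blood, position and tissue next to the brain. The Y-linked genes had a median of 3.12, and all 4 freeze-dried animals and fresh animals 2 and 4 had high levels, with Kdm5d at -0.29, -0.10, -0.35 and -0.35 in the freeze-dried group, against -7.48, -0.31, -7.20 and -0.36 in the fresh group. Xist, which shuts down 1 X chromosome in female cells, was not well above background in the freeze-dried group and was well above it in 2 fresh animals, with -7.68, -7.69, -7.99 and -7.81 in the freeze-dried group, against -0.88, -5.99, -0.48 and -7.35 in the fresh group. By these genes, sex was unequal between the groups, and a fit with Y-linked signal as a term also called 0 genes against all 4 fresh animals. Eif2s3x, an X-linked gene with a near-identical Y-linked copy, had 1.25, 0.49, 1.55 and 1.19 in the freeze-dried group, against -1.51, 0.81, -1.01 and 0.96 in the fresh group, and as its probe may read both copies it is uncertain.

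Erythroid genes had a median of 0.49 over 10, but their list means per animal, 0.37, 0.36, -0.25 and 0.14 in the freeze-dried group, against -0.20, -0.43, 0.34 and -0.33 in the fresh group, overlapped. The erythroid median was 0.07 under normexp correction and 0.04 in the deposited value table. With only probes well above background on all 16 arrays it was 0.03. Skin genes had a median of 0.82 and stood high in freeze-dried animal 2 alone, with Krt14 at -3.39, 2.49, -3.46 and -3.38 in the freeze-dried group, against -3.42, -3.73, -3.58 and -3.40 in the fresh group. Skeletal muscle genes had a median of -0.53 and stood high in fresh animal 1 alone, with Acta1 at -1.07, -1.37, -1.47 and -1.38 in the freeze-dried group, against 1.77, -1.46, -1.52 and -1.36 in the fresh group. Hox genes of hindbrain and spinal cord were low in freeze-dried animal 2 and fresh animal 2, with Hoxb5 at 0.79, -6.05, 1.12 and -0.41 in the freeze-dried group, against 0.87, -7.49, 1.02 and 1.09 in the fresh group, and the median of the list (0.43) turned sign under normexp correction. Growth hormone, Gh, made by the pituitary, was high in 1 animal of each group, with 2.38, -7.37, -7.63 and -7.66 in the freeze-dried group, against -7.11, -5.60, 2.87 and -7.19 in the fresh group. Markers of tissue next to the brain thus differed between single animals, and their part in the other results was not tested beyond leaving each animal out.

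**Figure D5:**
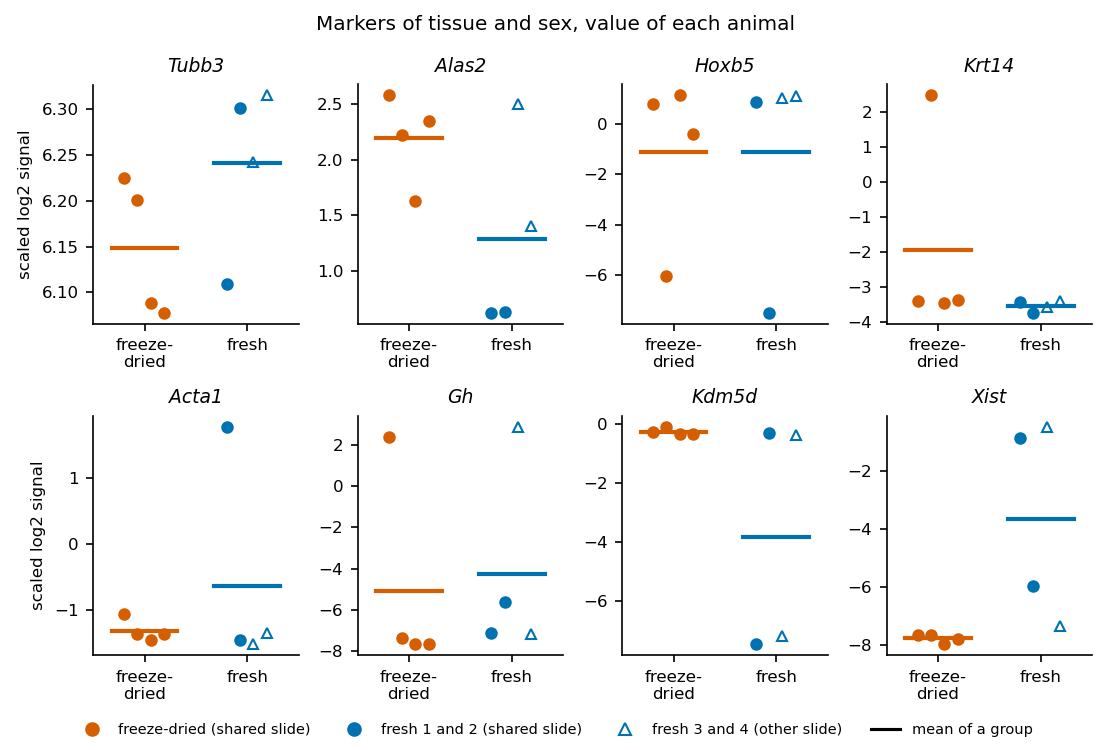
Scaled log2 signal (y axis) of each animal for markers of neurons (Tubb3), red cells (Alas2), hindbrain (Hoxb5), skin (Krt14), muscle (Acta1), pituitary (Gh), the Y chromosome (Kdm5d) and the inactive X (Xist), freeze-dried left and fresh right, with lines at group means. Open triangles are fresh animals 3 and 4 of the other slide, and single animals stand far from the rest of their group for Hoxb5, Krt14, Acta1 and Gh. The y axis has its own range in each panel, narrowest for Tubb3.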

How the data were processed

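Total RNA of 16 brains was hybridised to 16 one-colour (Cy3) arrays, per the labels. Scans were read with Agilent Feature Extraction 11.0.1.1, as the submitters' processing notes state, and the deposited scanner files give, per the file headers, a processed intensity per spot with background subtracted and no scaling across arrays. A value table deposited by the authors gives log2 signals for 31313 probes; its column medians were 9.33, 9.34, 9.34 and 9.34 for freeze-dried animals 1 to 4 and 9.34 for each of the 4 fresh animals, so it is centred alike on every array, its direction follows the scanner values (correlations of 0.879 to 0.96 across probes, which are not replicates), and how it was made is not given in the sources used here. In it 0 probes differed between the fresh animals of the 2 slides, against 777 of the same probes in the scanner values, so it served as an alternative only.

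From 62976 spots per array, 3671 controls and 2043 outlier spot values were left out, spots of a probe were averaged, log2 of the processed signal was reduced by the 75th percentile of its array, and a probe had to be well above background in every animal of 1 group or more (34261 passed). The brightest probe stood for its gene, with symbols from RefSeq by accession (32994 of 56605 probes matched); features without a symbol are counted and not named. All 16 arrays were fitted with limma 3.58.1 in R 4.3.3 with 4 group means, or with group by slide means for the comparisons by slide, and p-values were adjusted by Benjamini-Hochberg over 26477 genes and features, with 0.05 as the threshold. Scripts were tested on simulated data. No spot was saturated, and the number of arrays limits the precision.

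The comparison, the 44 gene lists, the tests and the alternatives were chosen with earlier results of these data known, and the lists were written from general knowledge. Named genes are the 20 of smallest p, the 8 largest non-overlapping values each way among genes well above background on all 8 arrays, up to 4 members of smallest p from each list, and a fixed set of markers, imprinted genes, methylation enzymes and stress genes; a few genes under this rule are not reported here. The deviations of animals sharing a replicate number had correlations over genes of -0.387, 0.33, -0.06 and -0.055 for numbers 1 to 4. These values cannot show or exclude a pairing, as slide and sex also varied within the fresh group. The main fit did not pair animals. Slide and scan time were the same split, and alternatives covered background correction, scaling, the filter, probes of a gene, slide, sex and each animal left out.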

Additional observations from a re-analysis of the deposited data

Results flagged for a closer look

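Among 272 groups of 4 values, taken from genes and lists named in the text, 23 held an animal far from the other 3 by Dixon's criterion at 95%. Many of these genes were named for their p, their difference or as tissue markers, and some vary together. The count therefore has no chance rate to be set against. Freeze-dried animal 2 accounted for 8 of the 23. In epithelial genes it lay at -0.34 for Anxa8, -1.19 for Cers3, 0.12 for Dsp, 2.49 for Krt14, 0.60 for Krt17 and 2.72 for Perp, above the other freeze-dried animals in each, and the mean deviation of the skin list was 2.72 in it, against -0.37 to -0.35 in the other 3. It also lay at -0.42 for Hbs1l, where the others had 1.75 to 1.94.

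Freeze-dried animal 1 stood at 2.38 for Gh and at 2.41 for Slc6a13, and freeze-dried animal 3 at 3.30 for Slc1a3 and 1.44 for Cx3cr1. In the fresh group, animal 1 stood at 1.77 for Acta1, with a mean deviation of the muscle list of 2.06 against -0.51 to -0.25 in the others, and at -3.19 for Orc1 and 0.95 for Uhrf1. Fresh animal 2 stood at -7.49 for Hoxb5, with a mean deviation of the Hox list of -4.17 against 0.96 to 1.37 in the others, and at -0.98 for Hspa1b and -2.75 for Prom1. Fresh animal 3 stood at 2.87 for Gh, -4.34 for 2610528A11Rik and 3.14 for Gad1.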

How the results depend on the processing

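The count of genes changed between freeze-dried and fresh offspring stayed at 0 under all alternatives that kept every animal except slide as a block, which gave 1 feature without a symbol. It was 0 to 4 when single animals were left out (4 without freeze-dried animal 1, 2 without fresh animal 1 and 1 without fresh animal 2), and Pdia2, without fresh animal 1, was the only called gene with a symbol (0.76, adjusted p = 0.0402 in limma). Against the shared slide, 0 became 6 with no filter on dim probes and 0 to 79 with single animals left out (79 without fresh animal 1, 70 without fresh animal 2, 42 without freeze-dried animal 1). Leaving out a fresh animal of this slide leaves 1 there, assumed to vary like the others. Against the other slide, 570 became 922 with normexp on the spot and background medians (the files hold no spot means), 59 with no filter, 15 after adding Y-linked signal as covariate, and 0 with only the 8 arrays, and 26 to 617 with single animals left out (26 without freeze-dried animal 2, 27 without fresh animal 3, 91 without freeze-dried animal 3, 190 without fresh animal 4). The replicate block gave 0 calls, and whether the numbers pair the animals is not known. The count at an unadjusted p under 0.05 ran from 1478 (median scaling) to 7263 (no filter). The median over all genes ran from -0.04 to 0.03.

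Of 125 tested genes named in the text, a count that leaves out Pdia2, 18 turned sign in at least 1 alternative. Of the same 125, 0 were called in any alternative of the comparison with all fresh animals, while Pdia2 was called in 1, as given above. Kcnq1ot1 became 0.09 without freeze-dried animal 1 and Acta1 0.13 without fresh animal 1. The median of the immediate early list ran from 0.12 to 0.24, of choroid plexus from 0.14 to 0.28 and of microglia from 0.05 to 0.12. Of the 1914 genes and features not well above background on all 8 arrays, 23.82% had an interval inside a 1.5-fold change, beside 84.1% of the 24563 well above it. The causes of these changes were not tested.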
